A study of Saccharomyces cerevisiae with 46 samples.

Results

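Acute loss of Spt4 from the nucleus of budding yeast was followed at the level of steady-state RNA in 4 of the 10 RNA-seq libraries of the study. The 2 Spt4-AA libraries came from a BY4741 strain with the genotype tor1-1, fpr1Δ, RPL13-2xFKBP12, SPT4-FRB-eGFP and RPB3-3xFLAG, harvested 140 min after rapamycin. They were compared with 2 DMSO libraries harvested after 120 min, of which DMSO library 1 came from this same strain and DMSO library 2 from its counterpart with SPT5-FRB-eGFP in place of SPT4-FRB-eGFP. The tor1-1 allele, the fpr1Δ deletion, the FKBP12-tagged ribosomal protein and the FLAG-tagged Rpb3 were thus common to all 4 libraries. So were the MATa mating type and the his3, leu2, ura3 and met15 alleles. Cells were grown in YPD at 30°C. Of the 4835 listed genes, 4685 averaged 10 or more normalized counts over the 4 libraries and were tested.

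Spt4 is a small zinc finger protein that binds Spt5, and the Spt4/5 complex travels with elongating RNAPII. In the anchor-away system, rapamycin bridges the FRB domain on the target protein to FKBP12 on a ribosomal protein, and the target leaves the nucleus as ribosomal subunits are exported. Rapamycin also inhibits TORC1, the kinase complex that couples nutrients to ribosome production, stress gene expression and autophagy. The tor1-1 allele makes this kinase resistant to the drug, and FPR1 encodes the yeast FKBP12 that would otherwise carry it. Among the RNA-seq libraries used here there was no rapamycin-treated strain without an FRB tag. Depletion of Spt4, exposure to rapamycin and the later harvest changed together, so their parts in any difference below cannot be told apart.

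The deposited values were read counts divided by 1 factor per library, and between 1866670 and 2730382 reads per library were recovered from them (1866670 and 2082274 reads with DMSO, 1957325 and 2730382 in Spt4-AA). As deposited, the median gene changed by -0.28 on the log2 scale from DMSO to Spt4-AA, so that the typical gene was lower after depletion. Dividing each library by its median ratio to the geometric mean of the 4 libraries moved the changes up by a median of 0.29 and left the median gene at 0.01. Both scales are given here as measured. Rescaled values compare each gene with the typical gene, and values as deposited carry the level set by the factors of the authors. The libraries did not repeat equally well. The interquartile range of the log2 difference between replicates, over the 2999 genes that averaged 100 or more normalized counts, was 0.24 for the DMSO pair and 0.50 for the Spt4-AA pair. The DMSO libraries came from different strains, so their spread includes the strain. The labels do not say whether the Spt4-AA libraries were separate cultures, and p-values measure the spread between these libraries only. In bulk RNA, fewer cells of a type and less RNA per cell cannot be told apart. The title of DMSO library 1 names RNA-seq while its source label names NET-seq, and it was used as RNA-seq.

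Counts per gene cannot show a tag, so the tags of these 4 libraries were not checked, while mutated genes such as FPR1 could be. LEU2, URA3 and MET17 (also MET15) were not among the listed genes. HIS3 had 17 and 24 reads with DMSO and 28 and 29 in Spt4-AA. SPT4 (YGR063C, R64 chromosome VII from 617516 to 617824 on the minus strand) was present in all 4 libraries, with 265 and 380 normalized counts with DMSO and 229 and 270 in Spt4-AA. The groups overlapped, and the log2 fold change was -0.06 after rescaling (standard error 0.19, limma with Benjamini-Hochberg adjustment, adjusted p = 0.885). Anchor-away moves the protein and not the message, so this RNA does not report on how much Spt4 was left in the nucleus. FPR1 was represented by 10 and 14 reads with DMSO and 7 and 17 reads in Spt4-AA, against 865 to 2919 reads in the WT and spt4Δ libraries, where it is not deleted. Of the mating type markers, the MATa genes MFA1, MFA2, STE2 and BAR1 were read in every library, while the meiotic genes IME1 and SPO11 had at most 8 reads in any of them.

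Depletion of Spt4 was followed by a rise of stress, storage carbohydrate, respiratory and vacuolar protease genes and by a fall of ribosome biogenesis, ribosomal protein, daughter cell and phosphate uptake genes. A gene is referred to as called when its adjusted p was under 0.05 over all 4685 genes in limma, fitted on log2(normalized count + 1), two-sided. As deposited, 142 genes were called higher, or 3.03% of those tested, and 880 lower, or 18.8%, for 21.8% in all. After rescaling, 222 genes were called higher, or 4.74%, and 199 lower, or 4.25%, for 8.99% in all. The scales agreed on 138 genes called higher and 199 called lower. Opposite calls could not occur, because the scales differ by a nearly constant shift of 0.29 and the smallest called change after rescaling was 0.59. The 681 genes called lower only as deposited and the 84 called higher only after rescaling are therefore those whose call depends on where the typical gene is set. Changes were mostly moderate. As deposited 92.6% of genes stayed within 2-fold, and after rescaling 112 called genes rose and 68 fell by more than that. The counts of calls moved with each library left out: 94 genes were called after rescaling without DMSO library 1 and 89 without DMSO library 2, against 1650 without Spt4-AA library 1 and 1451 without Spt4-AA library 2. In each of these fits the group left with 1 library is assumed to vary like the other group. All 421 called genes kept their direction in each of the 4 fits. For at least 417 of them this was fixed in advance, since their groups did not overlap.

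**Figure D1:**
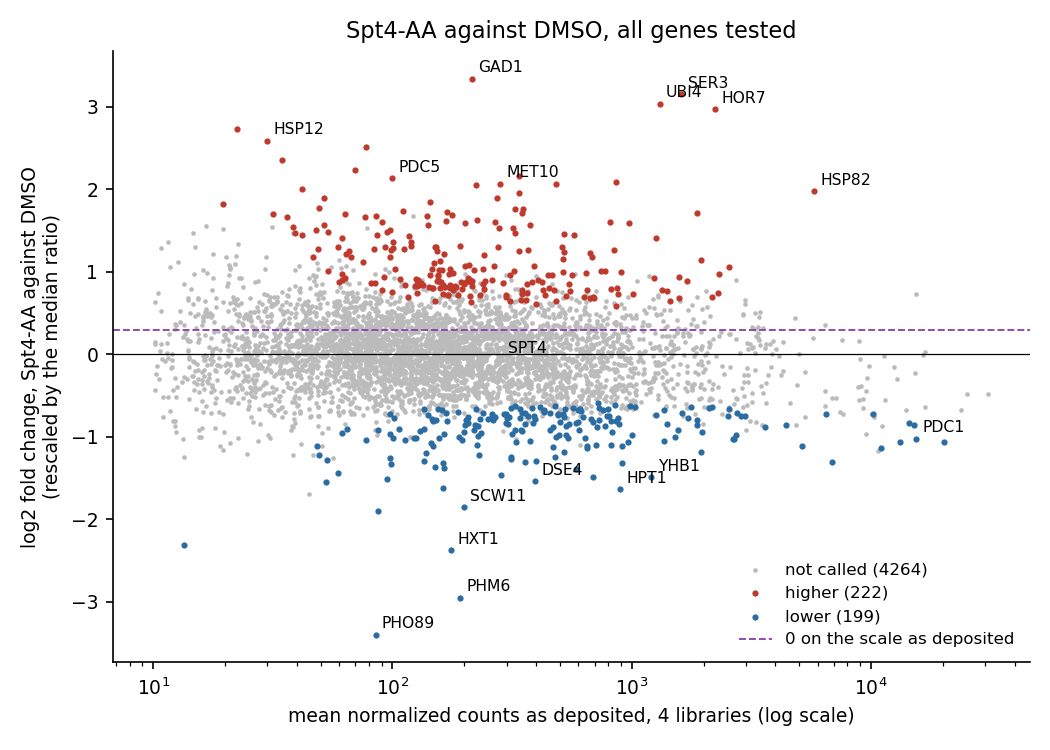
Log2 fold change of Spt4-AA over DMSO after rescaling by the median ratio (y axis) against the mean of the 4 libraries in normalized counts as deposited (x axis, log scale), 1 point per gene. The 222 genes called higher are red, the 199 called lower are blue, and the dashed line marks where a gene unchanged on the scale as deposited would lie.

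The largest rises joined stress genes with a few metabolic genes. GAD1, which encodes glutamate decarboxylase, had 46.7 and 44.4 normalized counts in the DMSO libraries and 371 and 397 in the Spt4-AA libraries. It lies on R64 chromosome XIII from 770801 to 772558, and rose 10.1-fold after rescaling (3.34 on the log2 scale, standard error 0.17, adjusted p = 0.00038 by limma). SER3, a phosphoglycerate dehydrogenase of serine synthesis, had 388 and 378 normalized counts with DMSO and 2213 and 3488 in Spt4-AA, a rise of 3.15 on the log2 scale (standard error 0.22, adjusted p = 0.00125, limma). SER3 is known for being silenced in rich medium by transcription of the noncoding gene SRG1 across its promoter, and it overlaps the annotated SRG1 on the same strand by 77 bases, so reads at its start may come from either. Its paralog SER33, with 83.3% identity over the coding sequence, had 265, 281, 159 and 341 normalized counts in the same order of libraries and was not called. UBI4, the stress-induced polyubiquitin gene, went from 343 and 334 normalized counts to 2077 and 2484, and HOR7, a small hyperosmolarity-responsive gene, from 618 and 573 to 4595 and 3144. In the genes called here both Spt4-AA libraries lay several-fold above both DMSO libraries, whereas the groups overlapped for SER33.

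The other 8 of the 12 largest rises started from lower or middling levels. HSP12, a membrane-stabilizing heat shock protein, had 7.57 and 11.1 normalized counts with DMSO and 61.6 and 39.8 in Spt4-AA, which in DMSO were 6 and 9 reads. PTR2, the di- and tripeptide transporter, had 35.3 and 19.7 against 143 and 113. CWP1, a cell wall mannoprotein, had 17.7 and 8.63 against 61.6 and 49.7. The remaining genes were FPT1, YBR085C-A, PDC5, BIO2 and MET10, with log2 fold changes after rescaling from 2.23 for FPT1 to 2.07 for MET10. Lack of overlap between the groups was a condition for the 12 rises and 12 falls. After rescaling, 1319 of the 4685 genes were higher without overlap and 1317 lower. PDC5 encodes a minor pyruvate decarboxylase, BIO2 biotin synthase and MET10 a subunit of sulfite reductase. PDC5 shares 87.2% of its coding sequence with PDC1, so a part of its few reads could belong to the far more abundant PDC1.

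The largest falls were led by phosphate uptake genes and a glucose transporter. PHO89, a sodium-coupled phosphate transporter (R64 chromosome II from 796798 to 798522), had 116 and 202 normalized counts with DMSO and 11.4 and 10.7 in Spt4-AA. It was 10.5-fold lower after rescaling (log2 fold change -3.40, standard error 0.30, adjusted p = 0.00262, limma). PHM6, a phosphate-regulated gene of unknown function, had 308 and 387 normalized counts with DMSO and 30.8 and 41.2 in Spt4-AA. HXT1, the low-affinity glucose transporter, fell from 314 and 294 to 46.6 and 47.6. Its coding sequence has 84.5% identity with HXT3 over 1553 aligned bases, so a part of its reads could belong to HXT3. PHO89, PHM6 and HXT1 dropped in both Spt4-AA libraries to levels far below either control.

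The next falls were spread over several functions. SCW11 and DSE4, glucanases with which the daughter cell separates from its mother, had log2 fold changes of -1.86 and -1.53 after rescaling. HPT1, which salvages hypoxanthine and guanine, went from 1390 and 1453 normalized counts to 355 and 392, and GLY1, the threonine aldolase that makes glycine, from 1020 and 1113 to 303 and 315. OAR1, a mitochondrial fatty acid synthesis enzyme, CUS2, a splicing factor, ATR1, a multidrug exporter, SPL2, a regulator of phosphate transport, and YHB1, the nitric oxide-detoxifying flavohemoglobin, completed the 12, with log2 fold changes between -1.90 for OAR1 and -1.49 for YHB1. Of the 24 genes with the largest changes all were called as deposited as well, and 21 were called without each library in turn. ATR1 and YHB1 were not called without either DMSO library (adjusted p = 0.163 and 0.101 for ATR1, 0.0693 and 0.0902 for YHB1, limma), nor SPL2 without DMSO library 2 (adjusted p = 0.0668).

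**Figure D2:**
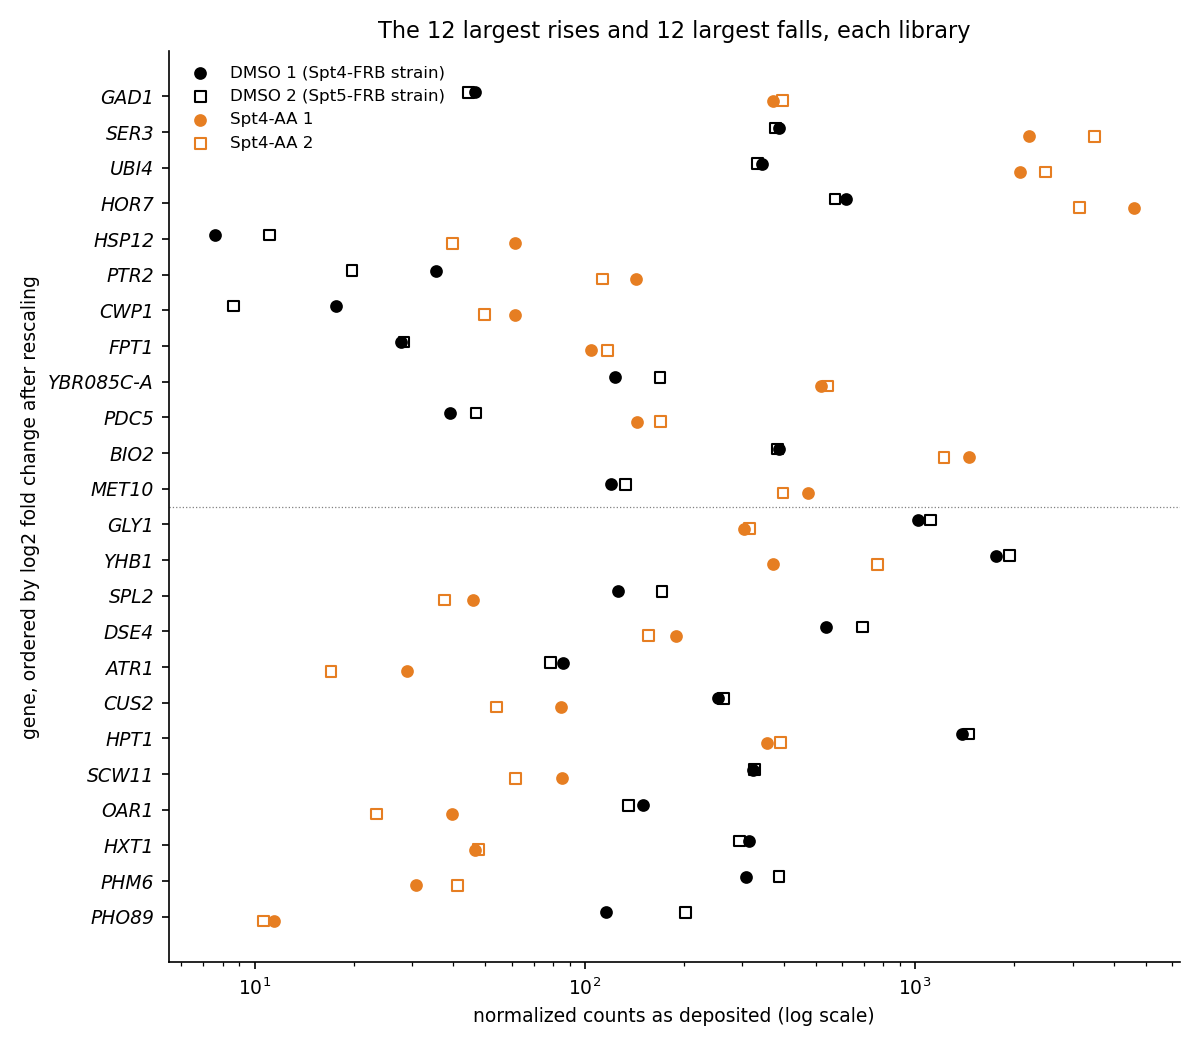
Normalized counts as deposited (x axis, log scale) of the 12 genes with the largest rises and the 12 with the largest falls after rescaling (y axis), 1 symbol per library. Black symbols are the DMSO libraries and orange symbols the Spt4-AA libraries. Genes were eligible only if the groups did not overlap, so the separation of the colors was set by the selection.

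Genes of the general stress response rose as a group. Msn2 and Msn4 are zinc finger activators that TORC1 and protein kinase A hold out of the nucleus in growing cells, and they bind the stress response element, STRE. Of 50 stress genes on the list 25 were tested, and 14 of these were called higher and none lower after rescaling, against 4.74% of all genes called higher. As deposited 14 were called higher and 1 lower, against 3.03% and 18.8% of all genes. Their median log2 fold change was 1.02 after rescaling and 0.73 as deposited, against 0.01 and -0.28 for all genes. As a share of all reads, which no scaling factor enters, the list held 0.174% and 0.167% in the DMSO libraries and 0.682% and 0.537% in the Spt4-AA libraries. PNC1, the nicotinamidase that rises under many stresses, had 185 and 251 normalized counts with DMSO and 619 and 874 in Spt4-AA (log2 fold change 2.06, adjusted p = 0.00356, limma). TMA10, a small ribosome-associated protein, had 7.57 and 4.93 against 40.5 and 36.2. Without DMSO library 1 and 2, 11 and 10 members were called higher, and the median stayed between 1.02 and 1.31 with any library left out.

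The STRE was also frequent upstream of the genes called higher. Promoters were scanned on both strands over 400 bases, starting 500 bases upstream of the start codon, a window that was available for 4609 of the tested genes. The letters AGGGG or their reverse complement occurred in 29.2% of the windows of all 6019 protein-coding genes with one, in 58.0% of those of genes called higher and in 20.5% of those called lower. Among stress genes 88.0% held a match. Genes with no match were called higher in 2.80% of 3288 cases, those with 1 match in 7.79% of 1066, those with 2 in 13.8% of 196, and those with 3 or more in 28.8% of 59. The median log2 fold change over the same 4 classes was -0.01, 0.06, 0.20 and 0.36. A match is a description of letters and not a shown site.
The stretches of 120 bases upstream of 4 strongly rising genes are given from R64, 5′ to 3′ toward the gene, with AGGGG on either strand in capitals (chrXIII:770580-770699 on the plus strand for GAD1, chrXII:65398-65517 on the minus strand for UBI4, chrVI:106792-106911 on the plus strand for HSP12 and chrVII:428154-428273 on the minus strand for PNC1).
GAD1: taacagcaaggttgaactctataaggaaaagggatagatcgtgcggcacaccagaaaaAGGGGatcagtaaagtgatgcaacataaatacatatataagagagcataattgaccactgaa
UBI4: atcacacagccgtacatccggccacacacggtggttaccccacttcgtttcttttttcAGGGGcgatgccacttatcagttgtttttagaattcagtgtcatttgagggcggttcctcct
HSP12: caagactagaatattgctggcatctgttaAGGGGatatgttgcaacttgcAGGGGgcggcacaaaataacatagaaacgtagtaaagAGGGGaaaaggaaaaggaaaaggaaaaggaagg
PNC1: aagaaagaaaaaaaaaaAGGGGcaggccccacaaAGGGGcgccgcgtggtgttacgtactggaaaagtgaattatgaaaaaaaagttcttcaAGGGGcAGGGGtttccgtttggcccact
GAD1 and UBI4 had 1 match in the whole window, PNC1 had 4 and HSP12 had 5, so the number of matches did not order the size of the rise among these genes.

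Several chaperone genes rose. Hsf1, the heat shock factor, drives cytosolic chaperones that fold newly made and damaged proteins. Of 33 chaperone and Hsf1 target genes tested, 11 were called higher and none lower after rescaling (against 4.74% of all genes called higher), with a median log2 fold change of 0.42. As deposited 9 were called higher and 3 lower, against 3.03% and 18.8% of all genes, with a median of 0.13. HSP82, the inducible Hsp90, had 2517 and 2946 normalized counts with DMSO and 7480 and 10220 in Spt4-AA (log2 fold change 1.98, adjusted p = 0.00356, limma). Its constitutive paralog HSC82, with 91.7% identity over the coding sequence, had a log2 fold change of 0.02 and was not called. CPR6, an Hsp90-associated prolyl isomerase, went from 977 and 1077 to 2697 and 2798, and the small heat shock protein HSP42 from 20.2 and 17.2 to 80.9 and 49.7. Called members numbered 6 and 5 without DMSO library 1 or 2, all higher, and 20 higher and 1 lower without Spt4-AA library 1, 15 and 4 without Spt4-AA library 2. The heat shock element, searched as GAA and TTC with any 2 bases between them, was present in 48.5% of these windows and in 16.3% of all. Its share was 19.6% among genes called higher and 21.0% among those called lower. CPR6 and HSP42 had 1 match each and HSP82 had none.

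Several genes of trehalose and glycogen metabolism rose. Of 9 trehalose genes tested 5 were called higher, and of 6 glycogen genes 3, against 4.74% of all genes. None was called lower, and the medians were 0.80 and 0.60 after rescaling. As deposited 4 and 2 were called higher, against 3.03% of all genes. As a share of all reads the trehalose list went from 0.0958% and 0.107% with DMSO to 0.177% and 0.224% in Spt4-AA, whereas the glycogen list had 0.147% and 0.166% against 0.232% and 0.150%, where Spt4-AA library 2 lay within the DMSO range. TPS1, the trehalose-6-phosphate synthase, had 284 and 339 normalized counts with DMSO and 496 and 970 in Spt4-AA, and TPS2, the phosphatase of the next step, had 71.9 and 86.3 against 164 and 158. NTH1, which breaks trehalose down, rose from 146 and 156 to 304 and 468. Its paralog NTH2 did not pass the test, with 164 and 217 against 136 and 173. GSY2, the main glycogen synthase, had 75.7 and 77.6 against 147 and 179, and GLC3, the glycogen branching enzyme, 16.4 and 35.7 against 62.5 and 92.4. Called members fell to 2 for trehalose without either DMSO library, and to 1 and 2 for glycogen without DMSO library 1 and 2. The trehalose regulator TSL1 (66.8 and 89.9 against 120 and 82.4), the acid trehalase ATH1 (64.3 and 57.9 against 81.8 and 67.5) and the phosphoglucomutase PGM1 (651 and 924 against 488 and 837) were not called.

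Genes of mitochondrial respiration were higher relative to the typical gene. Of 20 genes of the TCA and glyoxylate cycles 6 were called higher and none lower (median log2 fold change 0.65). Of 37 of the respiratory chain and ATP synthase 10 were called higher and none lower (median 0.49, with 35 of 37 above 0). Over all genes 4.74% were called higher. As deposited, 4 members of each list were called, all higher, against 3.03% of all genes. CIT1, the citrate synthase at the entry of the cycle, had 158 and 211 normalized counts with DMSO and 403 and 634 in Spt4-AA (log2 fold change 1.76, adjusted p = 0.00835, limma). QCR2, a core subunit of the cytochrome bc1 complex, had 121 and 131 against 213 and 305, and COX5B, the hypoxic isoform of a cytochrome oxidase subunit, 95.8 and 104 against 194 and 208. The share of all reads on the respiratory list was 0.346% and 0.339% with DMSO and 0.557% and 0.503% in Spt4-AA. Leaving out either DMSO library left 2 called members in each list, and with any library left out the lowest medians were 0.51 for the TCA list and 0.45 for the respiratory list. The CCAAT box recognized by the Hap complex, an activator of respiratory genes, was present in 85.0% and 86.5% of the windows of these lists and in 55.2% of all. Among all genes called higher its share was 57.1%.

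Vacuolar protease genes rose. Of 27 autophagy and protease genes 4 were called higher and none lower after rescaling (against 4.74% of all genes called higher), with a median of 0.45. As deposited 3 were called higher and 1 lower, against 3.03% and 18.8% of all genes. PEP4, the protease that activates the others in the vacuole, had 594 and 536 normalized counts with DMSO and 1297 and 1478 in Spt4-AA, and PRB1, the vacuolar proteinase B, 69.4 and 85.0 against 197 and 205. APE1, the aminopeptidase delivered by the autophagy machinery, rose from 47.9 and 72.7 to 158 and 166, and its receptor ATG19 from 45.4 and 48.1 to 66.0 and 86.7. The 3 proteases were called without each library in turn, while ATG19 was not called without either DMSO library.

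Nitrogen catabolite repression silences the genes for poor nitrogen sources through the GATA factors Gln3 and Gat1, which TORC1 keeps in check. Of 34 such genes 9 were called higher and 2 lower, against 4.74% and 4.25% of all genes, with a median of 0.22. As deposited 7 and 2 were called, against 3.03% and 18.8%. CAR1, the arginase, had 166 and 198 normalized counts with DMSO and 341 and 691 in Spt4-AA, and DAL3, of allantoin degradation, had 25.2 and 24.6 against 89.7 and 56.8. DCG1, which neighbors the allantoin genes, went the other way, from 22.7 and 24.6 to 3.52 and 2.84, which in Spt4-AA is 4 reads per library. The list shares PEP4, PRB1 and APE1 with the autophagy list. Without DMSO library 1 or 2, 5 of its members were called, all higher. GATAAG was present in 70.6% of the windows, in 18.1% of all and in 20.1% of those of genes called higher.

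Genes for making ribosomes fell together. Ribosome biogenesis and ribosomal protein genes use a large part of RNAPII transcription in growing yeast and are under the control of TORC1. Of 142 biogenesis factors tested 37 were called lower and none higher after rescaling, with 138 of 142 below 0 and a median of -0.58. As deposited 125 were called lower, with a median of -0.87. Of 55 genes for proteins of the 40S subunit 9 were called lower (median -0.48), and of 79 for the 60S subunit 15 (median -0.55), with none higher. As deposited these counts were 36 and 63. All 79 genes of the 60S subunit and 54 of 55 of the 40S subunit were below 0. The shift was therefore shallow but shared, and it passed the test in a minority of members after rescaling. Background shares were 4.25% called lower after rescaling and 18.8% as deposited.

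The abundance of these genes made the shift visible in the reads themselves. Genes of the 40S subunit took 12.1% of reads in both DMSO libraries (95% Wilson intervals 12.07 to 12.17 and 12.01 to 12.1) and 8.73% and 9.21% in the Spt4-AA libraries (8.69 to 8.77 and 9.18 to 9.25). Genes of the 60S subunit took 13.3% and 13.3% against 9.57% and 10.0%, and biogenesis factors 5.05% and 4.96% against 3.97% and 3.67%. The intervals cover counting error only. RPL8A, a 60S protein gene, had 1218 and 1527 normalized counts with DMSO and 410 and 485 in Spt4-AA, and RPS28B, of the 40S subunit, 6874 and 8178 against 2814 and 2848. Counts of duplicated ribosomal protein genes are uncertain where the copies are nearly identical, as for RPL8A (95.1% identity with RPL8B), RPL1B (99.4% with RPL1A) and RPS8A (98.2% with RPS8B). RPS12, which has no such copy, went from 20167 and 21697 to 8971 and 9924 and RPL29 from 5134 and 4931 to 2294 and 2175. RPL13A and RPL13B, the gene pair to which the FKBP12 anchor belongs, were not called after rescaling (log2 fold changes -0.37 and -0.85).

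NOP9, which binds the early precursor of the small subunit, had 402 and 526 normalized counts with DMSO and 135 and 183 in Spt4-AA (log2 fold change -1.25, adjusted p = 0.0163, limma). NSR1, a nucleolar protein of rRNA processing, had 2880 and 2829 against 796 and 1326, and NOP4, of the large subunit, 885 and 922 against 424 and 315. SYO1, which imports the 5S ribonucleoprotein proteins, had 393 and 292 against 98.5 and 141. With DMSO library 1 left out, 1 biogenesis factor and 1 gene of the 60S subunit were called, and with DMSO library 2 left out 1 biogenesis factor and no ribosomal protein gene. With Spt4-AA library 1 left out 97 biogenesis factors were called lower and 2 higher, and with Spt4-AA library 2 left out 115 lower and 1 higher. The median of the biogenesis list stayed between -0.68 and -0.46 in these fits, that of the 40S list between -0.61 and -0.38, and that of the 60S list between -0.76 and -0.46.

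The elements known upstream of biogenesis genes are PAC (GATGAG), bound by the repressors Dot6 and Tod6, and RRPE (searched as 4 A followed by 4 T), bound by Stb3. PAC occurred in 63.4% of the windows of biogenesis genes and in 23.4% of all, and RRPE in 68.3% and 10.4%. The 242 tested genes with both had a median log2 fold change of -0.33, with 34 called lower and 5 higher, against 4.25% and 4.74% of all genes. The 242 include biogenesis genes. Within the biogenesis list the median was -0.582 with PAC and -0.565 without, and -0.576 with RRPE and -0.559 without. Outside the biogenesis and ribosomal protein lists, RRPE was found in 19.4% of the windows of genes called lower.
The stretches upstream of NSR1 and NOP4 are given from R64, 5′ to 3′ toward the gene, with PAC and RRPE matches in capitals, 1 of each for NSR1 and 2 of PAC for NOP4 (chrVII:807773-807892 on the minus strand for NSR1 and chrXVI:469719-469838 on the plus strand for NOP4).
NSR1: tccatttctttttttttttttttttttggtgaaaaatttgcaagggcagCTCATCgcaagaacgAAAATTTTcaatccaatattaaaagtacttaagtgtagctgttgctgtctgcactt
NOP4: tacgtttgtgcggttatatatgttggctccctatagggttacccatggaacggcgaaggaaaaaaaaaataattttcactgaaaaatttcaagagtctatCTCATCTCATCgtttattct
Ribosomal protein genes, which are driven by Rap1 and Ifh1, held PAC less often (16.4% for the 40S and 21.5% for the 60S list) than biogenesis genes.

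Of the 46 lists, the daughter cell genes had the median farthest from 0. After division the daughter cell makes enzymes that digest the septum and free it from its mother. Of 14 such genes tested 10 were called lower, against 4.25% of all genes, and none higher, with a median log2 fold change of -1.20 after rescaling. As deposited 11 were called lower, against 18.8% of all genes, with a median of -1.50. DSE4 had 538 and 694 normalized counts with DMSO and 189 and 156 in Spt4-AA, and SCW11 324 and 327 against 85.3 and 61.8. SUN4, a septation glucanase, fell from 404 and 479 to 131 and 128, EGT2, of cell separation, from 261 and 240 to 85.3 and 71.0, and the endochitinase CTS1 from 547 and 639 to 243 and 158. Both Spt4-AA libraries lay below both controls in each, as they did for 2433 of the 4685 genes as deposited and for 1317 after rescaling. Without DMSO library 1 or 2, 6 and 5 members were called lower, and the median lay between -1.31 and -1.08. Cyclin and CDK inhibitor genes had a median of 0.04 with none of 15 called, and the 11 histone genes a median of -0.09 with none called.

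Phosphate uptake genes fell. Pho4 activates the phosphate regulon when phosphate is scarce, and Pho81 is the inhibitor that lets it act. Of 23 genes of the phosphate regulon 5 were called lower and 1 higher after rescaling (against 4.25% and 4.74% of all genes), with a median of -0.27. As deposited 9 were called lower and 1 higher, against 18.8% and 3.03% of all genes. The transporters PHO89 and PHO84, their regulator SPL2, the inhibitor PHO81 and PHM6 fell. PHO84, the high-affinity transporter, had 968 and 932 normalized counts with DMSO and 303 and 408 in Spt4-AA, and PHO81 488 and 476 against 193 and 225. PHM8, a nucleotide phosphatase, rose from 88.3 and 92.4 to 290 and 208. Called lower were 3 members without DMSO library 1, 2 without DMSO library 2, 8 without Spt4-AA library 1 and 12 without Spt4-AA library 2.
The core Pho4 site CACGTG was present in 69.6% of these windows and in 5.67% of all windows. Among genes called lower and higher the shares were 10.8% and 8.68%. CACGTG was also present in 70.4% of the windows of the sulfate assimilation and methionine list, whose median log2 fold change was -0.03. The stretches that hold it, in capitals, upstream of 4 of the falling genes are given from R64, 5′ to 3′ toward the gene (chrII:798783-798902 on the minus strand for PHO89, chrIV:1022538-1022657 on the minus strand for PHM6, chrVIII:375399-375518 on the minus strand for SPL2 and chrXIII:26163-26282 on the minus strand for PHO84).
PHO89: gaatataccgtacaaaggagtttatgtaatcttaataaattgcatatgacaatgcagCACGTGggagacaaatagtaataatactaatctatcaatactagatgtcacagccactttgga
PHM6: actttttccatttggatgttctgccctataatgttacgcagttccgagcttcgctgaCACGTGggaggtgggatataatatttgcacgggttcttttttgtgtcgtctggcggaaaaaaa
SPL2: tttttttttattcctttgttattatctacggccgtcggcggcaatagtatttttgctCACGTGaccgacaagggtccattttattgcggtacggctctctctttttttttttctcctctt
PHO84: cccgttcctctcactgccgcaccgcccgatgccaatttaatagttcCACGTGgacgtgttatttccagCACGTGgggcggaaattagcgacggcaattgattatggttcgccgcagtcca
In the whole window PHO89 and PHM6, with the deepest falls, had 1 match each, and SPL2 and PHO84 had 2 each.

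Amino acid, sulfur and nucleotide metabolism changed gene by gene. In the serine, glycine and one-carbon list SER3 rose, and GLY1 and MIS1, a mitochondrial folate enzyme, fell, with the other 11 of 14 not called. Of 27 sulfate assimilation and methionine genes 2 were called higher and 4 lower after rescaling. Over all genes 4.74% were called higher and 4.25% lower after rescaling, and 3.03% and 18.8% as deposited. As deposited the calls were 1 higher and 5 lower in the serine list, 1 and 9 in the sulfur list, 1 and 7 among permeases and 1 and 7 among purine genes. MET10 had 120 and 133 normalized counts with DMSO and 475 and 398 in Spt4-AA, whereas SAM1, an S-adenosylmethionine synthetase with 83.6% identity to SAM2, went from 1192 and 1421 to 357 and 672, and MMP1, the S-methylmethionine permease, from 114 and 180 to 50.1 and 46.2. Among 16 amino acid permeases AGP1 rose (119 and 121 against 166 and 215), while TAT2, the tryptophan permease, fell from 631 and 780 to 314 and 365 and GNP1 from 584 and 627 to 264 and 344. In the purine list of 19 genes HPT1, AAH1 and ADE8 fell and IMD2 rose. AAH1, the adenine deaminase, had 818 and 965 against 245 and 311. IMD2, the inosine monophosphate dehydrogenase whose transcription start responds to guanine nucleotides, had 193 and 172 against 321 and 423, and its copy IMD3, with 89.0% identity, a log2 fold change of 0.14. Called members of these lists numbered 2 each for serine and sulfur, 1 for permeases and 3 for purines without DMSO library 1, and 2, 1, 0 and 2 without DMSO library 2.

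In some further lists the calls are those after rescaling unless stated. Their background over all genes was 4.74% called higher and 4.25% lower after rescaling, and 3.03% and 18.8% as deposited. Among 29 glycolysis and fermentation genes, the glucokinase GLK1 (108 and 165 normalized counts against 358 and 466), GPP2, PYK2 and PDC5 rose, and PDC1, the main pyruvate decarboxylase (22425 and 21826 against 9353 and 8446), and ALD5 fell, around a median of 0.08, and as deposited 4 were called higher and 5 lower. Of 10 genes of deoxynucleotide supply and DNA damage, RNR2, RNR4 and the ribonucleotide reductase inhibitor SML1 rose, and RNR1, the large subunit that peaks in S phase, fell from 682 and 683 to 282 and 231. Of 29 oxidative defence genes 7 rose after rescaling, among them the peroxiredoxins TSA1 (1267 and 1512 against 2134 and 2914) and AHP1, while ATR1 and GPX2 fell, but as deposited 4 were called higher and 6 lower. In the NAD and biotin list PNC1, BIO2 and the biotin transporter VHT1 rose, of 14 tested. Of 14 pheromone response genes MFA1, KAR4 and AGA1 rose. Without either DMSO library none of the 4 deoxynucleotide genes was called, and of the pheromone genes only 1 without DMSO library 1 and none without DMSO library 2. Of the oxidative defence genes none was called without DMSO library 1 and 2 without DMSO library 2.

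Of the transcription machinery with which Spt4 works, none of 11 RNAPII subunit genes was called after rescaling, against 8.99% of all genes, and 4 were called lower as deposited (RPB4, RPO26, RPB8 and RPB9), against 18.8%. RPB3, which carries the FLAG tag, had 348 and 481 normalized counts with DMSO and 294 and 566 in Spt4-AA. RPB2, the second largest subunit, had 2607 and 2592 against 2709 and 2321. At an unadjusted p under 0.05, 1296 of the 4685 genes passed after rescaling. Of 38 elongation factors and histone chaperones 11 were called lower as deposited and 1 after rescaling. That 1 was SET2, the histone H3 lysine 36 methyltransferase, with 584 and 667 against 323 and 338 (log2 fold change -0.62, adjusted p = 0.0458, limma). SPT6 had a log2 fold change of -0.02 and SPT16, the FACT subunit, 0.69 (adjusted p = 0.0517). Of 30 genes of TORC1 signalling 6 were called lower as deposited and 1 after rescaling, the Rag GTPase gene GTR2, with 178 and 229 against 57.2 and 77.4 (log2 fold change -1.30, adjusted p = 0.0167). SET2 was not called without either DMSO library, and GTR2 not without DMSO library 2. With Spt4-AA library 1 left out, 8 elongation genes were called higher and 6 lower, 1 RNAPII subunit higher and 3 lower.

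**Figure D3:**
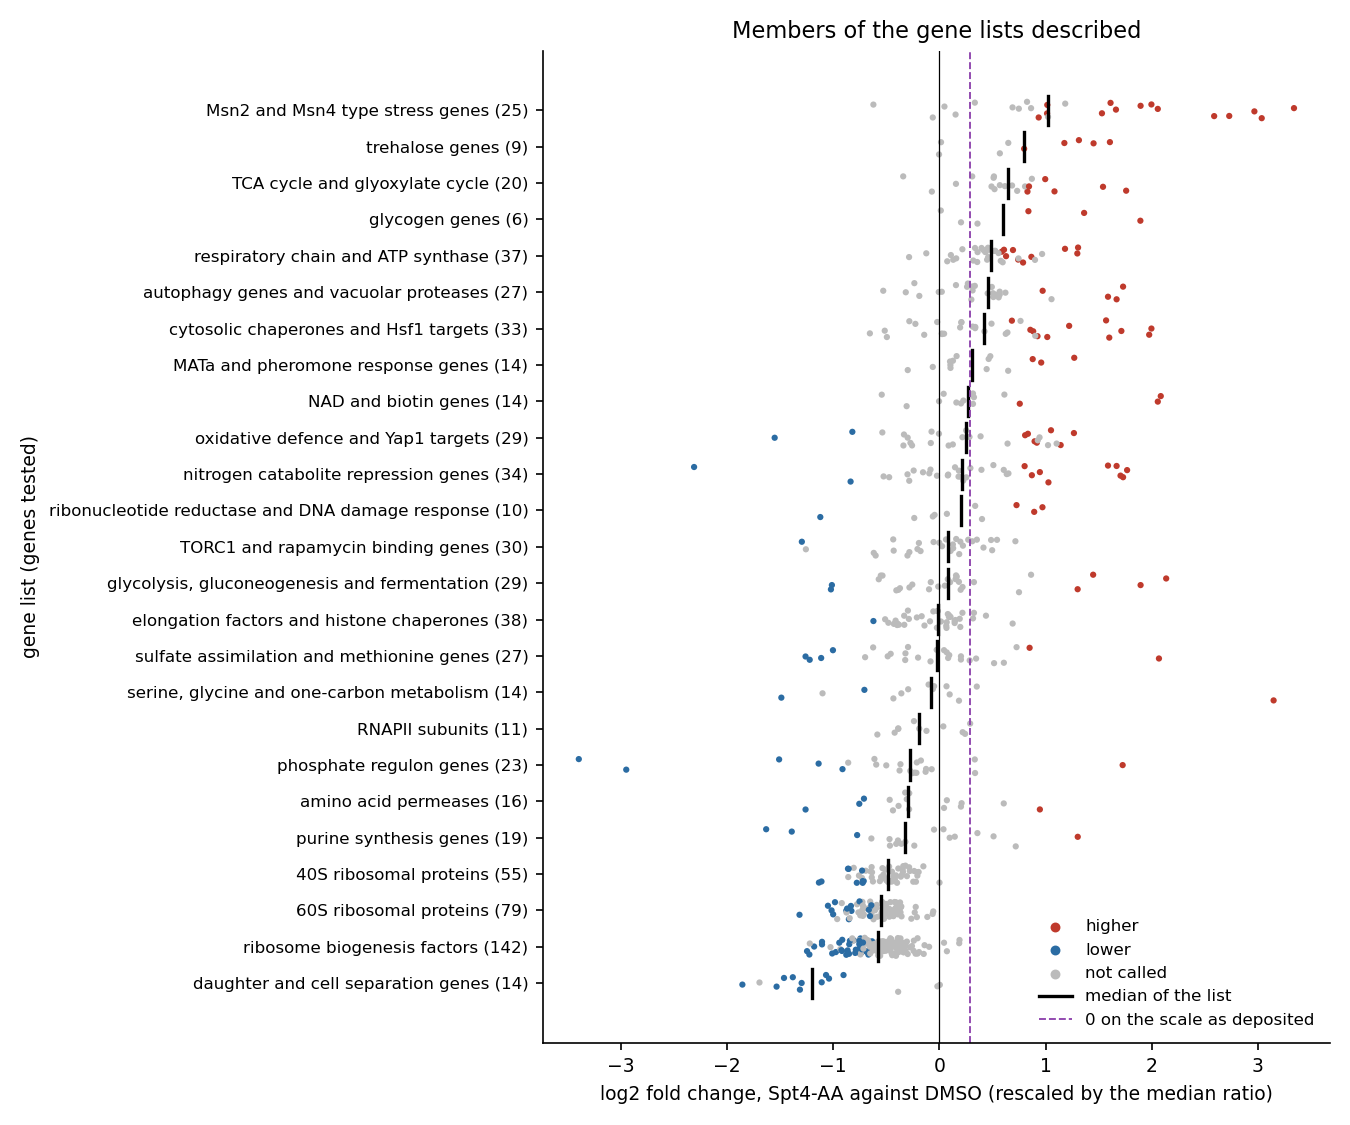
Log2 fold change of Spt4-AA over DMSO after rescaling (x axis) for every tested member of the 25 lists described, 1 row per list with the number tested in parentheses and random vertical spread within a row. Red points were called higher, blue lower and grey not called, the dashed line marks 0 on the scale as deposited, and the black bar is the median, which ran from -1.20 for the daughter cell genes to 1.02 for the stress genes.

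The number of calls in most lists also rose when an Spt4-AA library was left out. Without Spt4-AA library 1 and 2, the TCA list had 14 and 10 members called higher, the respiratory list 21 and 23, the autophagy list 9 and 9, and the 40S and 60S lists had 33 and 57, then 47 and 72, called lower. Of the 421 called genes 209 were on at least 1 of the 46 lists and 212 on none.

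Short genes were slightly higher and long genes slightly lower relative to the typical gene. With genes split by length into 5 equal classes, the median log2 fold change after rescaling was 0.08, 0.03, 0.05, -0.01 and -0.09, from a median length of 486 bp in the shortest class to 2652 bp in the longest. Without ribosomal protein and biogenesis genes the medians were 0.12, 0.10, 0.07, 0.01 and -0.06. Without these genes the quartiles were -0.15 and 0.41 in the shortest class and -0.30 and 0.18 in the longest, so the classes overlapped widely. Level mattered little for the median, which was 0.00 in the lowest of 5 classes of mean normalized counts per kb and -0.03 in the highest, while the share called rose from 2.28% to 14.3%. Genes with an intron other than ribosomal protein genes had a median of 0.09 (134 genes), and those without one 0.02 (4341 genes). Ribosomal protein genes had medians of -0.52 with an intron and -0.54 without. The 159 genes within 30 kb of a chromosome end had a median of 0.05. These are descriptions over genes, which are not replicates.

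**Figure D4:**
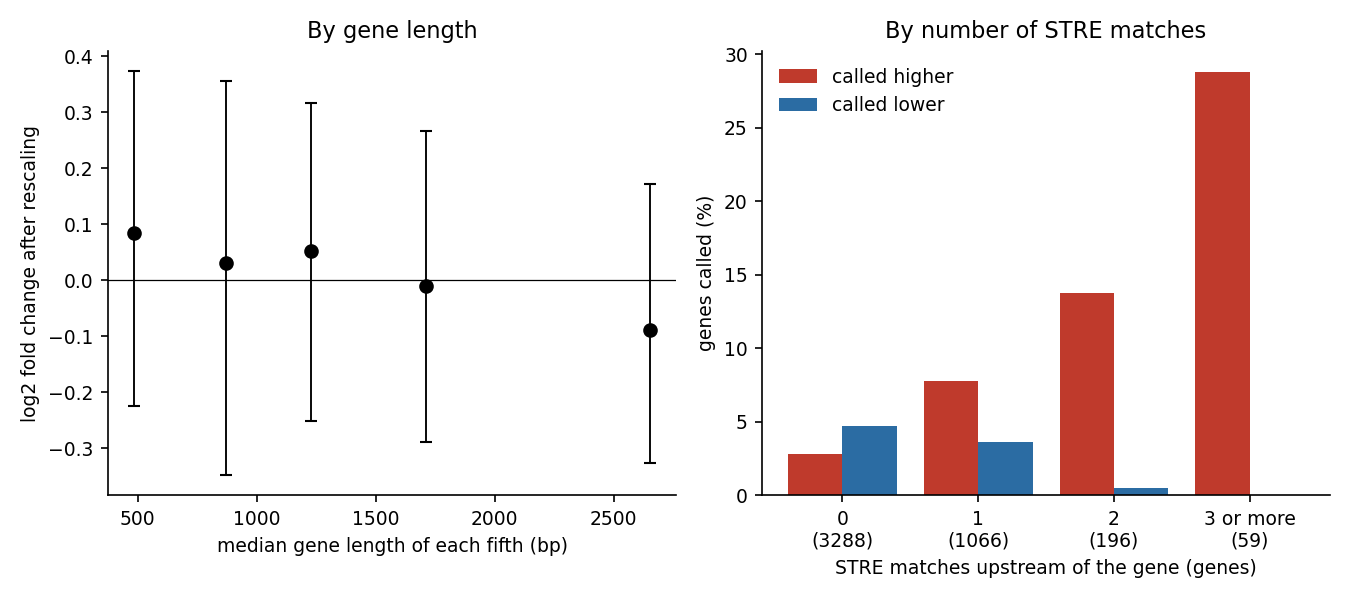
Left, median log2 fold change after rescaling (y axis) by class of gene length in bp (x axis, 5 equal classes), with bars from the lower to the upper quartile of the class, with medians of 0.08 in the shortest and -0.09 in the longest class. Right, percentage of genes called higher (red) or lower (blue) by the number of STRE matches upstream (x axis, with the number of genes), where the share called higher went from 2.80% with none to 28.8% with 3 or more.

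To compare acute with lasting loss of Spt4, the same genes were measured in WT and spt4Δ cells, BY4741 with RPB3-3xFLAG and without the anchor-away alleles, 2 libraries each and untreated. That table was normalized separately, so only changes within each table were compared, in 1 limma fit of 8 libraries after rescaling, over 4671 genes. In this fit 84 genes were called in spt4Δ (53 higher and 31 lower), or 1.8%. Of these 61 were also among the 421 genes called in Spt4-AA in the separate fit of 4 libraries, all in the same direction (38 higher and 23 lower), which is 72.6% of the spt4Δ calls and 14.5% of the 421 Spt4-AA calls. Across genes, which are not independent replicates, Pearson's r of the fold changes was 0.64 (n = 4671). All 24 genes with the largest changes in Spt4-AA had the same sign in spt4Δ, and 16 of them were called there. The 24 were picked by their size in Spt4-AA, and 21 of them changed less in spt4Δ. The share of all genes with the same sign was not counted. The shared genes included GAD1, SER3, UBI4, HOR7, HSP12, PEP4, PRB1, CAR1, TPS1 and CIT1 on the rising side and HXT1, SCW11, DSE4, CTS1, EGT2, PHO81, SPL2 and RPL8A on the falling side.

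The difference between the changes in Spt4-AA and spt4Δ was called for 3 genes, or 0.0642% of those tested, with 175 at an unadjusted p under 0.05. SPT4 itself was at 0 and 4 reads in spt4Δ, so that the size of its difference (7.84) depends on the pseudocount, and was not called in Spt4-AA. PDC5 had 68.0 and 50.3 normalized counts in WT and 6919 and 2012 in spt4Δ, and its log2 fold change after rescaling was 5.13 there against 2.14 in Spt4-AA (difference -3.00, standard error 0.32, adjusted p = 0.000243, limma). MET10, with 193 and 194 in WT and 624 and 278 in spt4Δ, had 0.26 against 2.07 (difference 1.81, standard error 0.28, adjusted p = 0.0186). The MET10 call did not hold as deposited (difference 0.67, adjusted p = 0.468) and was lost in 6 of the 8 fits that left out 1 library, namely without either DMSO library, Spt4-AA library 1, either WT library or spt4Δ library 1 (adjusted p = 0.0602 to 0.238). PDC5 and SPT4 were called in all 8 and as deposited. SER3 had 3.35 in spt4Δ against 3.15, and IMD2 2.56 against 1.30, a difference that did not pass (adjusted p = 0.289). PHO89 and PHM6, the deepest falls in Spt4-AA, had log2 fold changes of -1.30 and -0.90 in spt4Δ without being called, with adjusted p of 0.999 and 0.289 for the difference after rescaling. As deposited the difference was -3.23 for PHO89, which was called (adjusted p = 0.0158), and -3.18 for PHM6 (adjusted p = 0.0758). The median-ratio factor was 2.15 for spt4Δ library 1 and 0.832 for spt4Δ library 2. PHM6 was called without spt4Δ library 2 (difference -2.71, adjusted p = 0.015). Leaving out 1 of the 8 libraries gave 2 to 10 called differences, the 10 without spt4Δ library 2. The strains also differ in the anchor-away alleles and the treatments in rapamycin and DMSO, and their part was not tested.

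**Figure D5:**
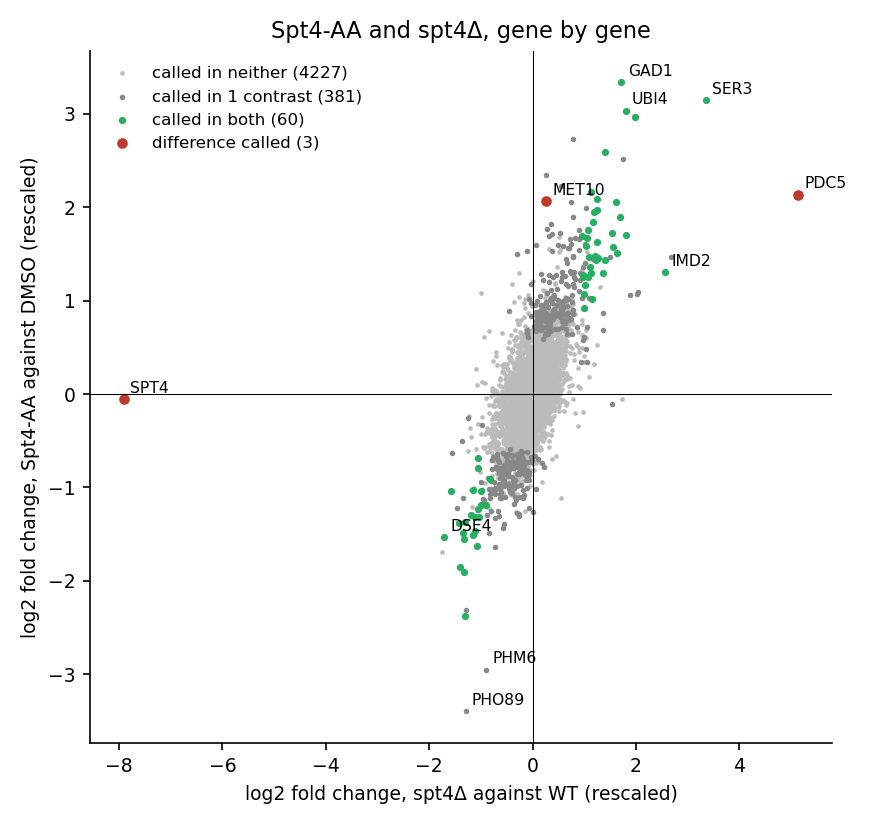
Log2 fold change of Spt4-AA over DMSO (y axis) against that of spt4Δ over WT (x axis), both after rescaling within their own table, 1 point per gene for 4671 genes. Green points were called in both contrasts, all of them in the lower left or upper right, and the 3 red points (SPT4, PDC5 and MET10) are those whose changes differed after rescaling.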

How the data were processed

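RNA-seq libraries were made by rRNA depletion with a directional kit, with S. pombe cells added as a spike-in. Per the submitters' processing notes, reads were handled with Trim Galore and TopHat, and DESeq2, on sacCer3 (R64). Versions and the source of the scaling factors are not given in the sources used here. The deposited signal is a read count per gene divided by 1 factor per library by the authors. Whole reads were recovered for 100% of values (tolerance 0.02 reads), with 1866670 to 2730382 reads per library. S. pombe reads were not analysed here. The authors' tables of their own comparisons (fold changes, errors and p-values) were not used, and 0 columns of unmapped samples were present.

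The 4685 of 4835 genes that averaged 10 or more normalized counts were fitted with limma 3.58.1 (R 4.3.3), as deposited and after median-ratio rescaling. The response was log2(normalized count + 1), the variance followed an intensity trend, and two-sided p-values were adjusted over all genes by Benjamini-Hochberg. Fold changes are on this scale, which understates changes of low genes. For spt4Δ, the difference of the changes was fitted over 8 libraries. Alternatives were pseudocounts of 0.1 and 10, no filter, a mean of at least 100, scaling to the same total, edgeR 4.0.16 and DESeq2 1.42.0 on the recovered reads, a replicate block and each library left out. Fits were tested on simulated data. Wilson intervals are at 95% and cover counting error only. Similar genes were sought by BLAST+ 2.17.0 over coding sequences. Of the listed genes 4716 were in the R64 annotation and 119 were not. Motifs were matched in 400 bases starting 500 upstream of the start codon, in the RefSeq R64 genome.

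The genes named were SPT4 and FPR1, the 12 largest rises and falls after rescaling among called genes averaging 50 or more normalized counts in 1 group and no overlap, up to 6 called members with the largest changes of each described list (every member of lists of 12 or fewer), and the 3 largest called differences from spt4Δ each way. Paralogs, regulators and a few further list members were named after their values were seen. The members and lists were chosen with earlier results of these data known.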

Additional observations from a re-analysis of the deposited data

Results flagged for a closer look

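The change in Spt4-AA over DMSO differed from that in spt4Δ over WT for 3 genes by the contrast of both changes in 1 limma fit of 8 libraries. The difference on the log2 scale after rescaling was -3.00 for PDC5 (adjusted p = 0.000243), 1.81 for MET10 (adjusted p = 0.0186) and 7.84 for SPT4 (adjusted p = 5.98e-06), the gene deleted in spt4Δ. PDC5 and SPT4 were also called as deposited and without each of the 8 libraries in turn. MET10 was not called as deposited (adjusted p = 0.468), nor in 6 of the 8 fits that left out 1 library, those without DMSO library 1 or 2, Spt4-AA library 1, WT library 1 or 2 or spt4Δ library 1.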

How the results depend on the processing

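Against 1022 genes called as deposited, scaling to the same total gave 671, edgeR with TMM 459 and DESeq2 468, and leaving out 1 library 4 to 1736. Against 421 after rescaling, the same total gave 671, with 72.9% of them higher against 52.7%, edgeR with TMM 459, DESeq2 468, and leaving out 1 library 89 to 1650. All 421 kept their direction under each of these settings. For the same total this was fixed in advance. That scaling moves all genes nearly alike, by less than the smallest called change of 0.59. With 1 library left out it was fixed for at least 417 genes, whose groups did not overlap. The median log2 fold change of -0.28 as deposited was -0.25 with a pseudocount of 10, -0.31 at a mean of at least 100, 0.14 after scaling to the same total, and -0.33 to -0.24 with 1 library left out. Of 133 named genes none reversed. Calls were lost for 60 and 65 of them without DMSO library 1 and 2, for 11 as deposited, for 6 with DESeq2 and for 0 with edgeR. The cause was not tested. In a fit that left out 1 library, its group kept 1 library and was assumed to vary like the other group.

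The difference from spt4Δ was called for 3 genes, and for 2 to 10 with 1 library left out. With the replicate block over WT and spt4Δ it was called for 6 genes, although the numbers did not pair the samples (correlation of deviations -0.26). A crossed pairing, chosen after seeing the data, gave 9. No paired analysis was possible because the DMSO libraries of the main comparison carry no replicate number.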

Other observations

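Proteasome genes were higher relative to the typical gene. Of 42 proteasome and Cdc48 genes 41 were above 0 after rescaling, with a median log2 fold change of 0.57. PRE2, RPN6, RPT2, RPT5, SHP1 and UBI4 were called higher, against 4.74% of all genes. On the scale as deposited 2 of the 42 were called higher, against 3.03% of all genes, with a median of 0.28. The list took 1.67% and 1.71% of reads in the DMSO libraries and 2.82% and 2.86% in the Spt4-AA libraries. The proteasome element PACE, the site of Rpn4, was upstream of 72 tested genes, whose median was 0.41. The 72 genes listed as mitochondrial ribosomal proteins had a median of 0.24, with 63 above 0, and 2 were called higher, against 4.74% of all genes. These were MRP51 and MRP8, and the latter is no longer counted as such a protein despite its name.

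Of 54 amino acid biosynthesis genes 7 were called lower, against 4.25% of all genes, among them CHA1 (log2 fold change -1.31), HIS4 (-1.10) and GLY1. LYS1 was called higher (1.69). Of 40 translation factor genes DED1, EFB1, EFT2 and YEF3 were called lower, with changes between -1.07 and -0.94, against 4.25% of all genes. On the scale as deposited 8 of the 40 were called lower, against 18.8% of all genes. The cell wall list of 34 genes had CWP1, CWP2, SED1 and TIP1 called higher and PIR1 lower, against 4.74% and 4.25% of all genes. On the scale as deposited 4 were called higher and 7 lower, against 3.03% and 18.8%. PMA1, the plasma membrane proton pump, had a log2 fold change of -1.30 and was called lower. The 21 lists not described in the report had medians between -0.19 and 0.57, with 37 calls among 497 entries, against 8.99% of all genes called. These genes were named after their values were seen.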
